A study of Mus musculus with 48 samples.

Results

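The replication-dependent histone genes of the mouse are described here as they appeared in CAGE libraries of T cells stimulated through the T cell receptor with or without engagement of the inhibitory receptor PD-1. Members were all gene symbols of the deposited tables that begin with Hist1h, Hist2h, Hist3h or Hist4h. There were 62 such genes among 10098 genes in the hybridoma table and 54 among 10219 genes in the CD4 table, and all 54 were also among the 62. By type, the hybridoma table held 5 H1, 16 H2A, 17 H2B, 11 H3 and 13 H4 genes, and the CD4 table held 5 H1, 15 H2A, 13 H2B, 11 H3 and 10 H4 genes. Tag clusters that carried the same symbol were summed, which joined 98 clusters in the hybridoma table and 72 in the CD4 table. All members passed the filter on low values in both tables. CAGE sequences the 5′ ends of capped RNA, so a tag stands for a transcript end and levels of different genes, in RPM (tags per 1000000 tags of the library), do not depend on transcript length.

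Core histones H2A, H2B, H3 and H4 form the protein spool of the nucleosome, and H1 binds the linker DNA between spools. Their replication-dependent genes lie in clusters, are transcribed mainly while DNA is copied, and give mRNAs that end in a stem-loop in place of a poly(A) tail, so methods that select poly(A) RNA see few of them whereas CAGE of total RNA counts them. T cells that divide therefore carry large amounts of these mRNAs, and the amount is known to depend on the share of cells in S phase.

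The hybridoma libraries came from DO11.10 cells, a T cell line of the strain background BALB/c x AKR/J, stimulated with the ovalbumin peptide pOVA at 1, 10, 100, 1000 and 10000 nM with PD-1 engagement, at the same doses without it, and at dose 0 with and without it. The CD4 libraries came from CD4+ T cells of BALB/cCrSlc mice, which received the anti-CD3 antibody 2C11 at 10, 100, 1000 and 10000 ng/ml with PD-1 engagement, at the same doses without it, and at dose 0 with and without it. Each of the 22 groups had 2 libraries, except the groups at 10000, which had 3, giving 26 hybridoma and 22 CD4 libraries. The labels do not say how PD-1 was engaged, how long cells were stimulated, or whether libraries of a group came from separate cultures or animals, so p-values measure the spread between these libraries, which may be technical. The hybridoma is 1 clonal line. In both systems the bulk RNA cannot tell fewer cells with histone mRNA from less histone mRNA per cell.

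The sequences that precede the start of a few members show letters that some or most genes of a type share at the level of DNA. They are RefSeq sequences of build GRCm38, matched by symbol for 53 of the 62 genes, and are given 5′ to 3′ along the gene's strand. The first set holds H4 promoters, among them the most abundant members, with the letters GGTCCG in capitals.
Hist1h4d (chr13:23581468-23581567, plus strand): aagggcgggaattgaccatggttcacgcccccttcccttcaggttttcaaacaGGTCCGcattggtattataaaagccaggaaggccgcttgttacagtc
Hist1h4c (chr13:23698459-23698558, minus strand): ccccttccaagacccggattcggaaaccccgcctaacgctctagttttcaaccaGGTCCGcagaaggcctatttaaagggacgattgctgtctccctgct
Hist1h4n (chr13:21832198-21832297, minus strand): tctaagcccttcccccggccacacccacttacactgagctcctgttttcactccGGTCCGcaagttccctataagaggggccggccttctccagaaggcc
Hist4h4 (chr6:136804432-136804531, minus strand): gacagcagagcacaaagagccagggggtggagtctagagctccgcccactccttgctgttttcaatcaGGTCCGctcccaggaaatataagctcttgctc
The second set holds H2B promoters with the octamer ATTTGCAT in capitals, chosen because Hist2h2bb and Hist1h2bb were the most abundant H2B genes and Hist1h2bk lies in a block of genes that responded differently in the 2 systems. Only genes with the octamer are printed, and most H2B promoters lacked it. Hist1h2bj, the other H2B gene of that block, had no octamer in its window.
Hist2h2bb (chr3:96269600-96269699, plus strand): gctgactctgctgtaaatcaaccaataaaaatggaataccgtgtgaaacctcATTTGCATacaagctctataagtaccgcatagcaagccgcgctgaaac
Hist1h2bb (chr13:23746634-23746733, plus strand): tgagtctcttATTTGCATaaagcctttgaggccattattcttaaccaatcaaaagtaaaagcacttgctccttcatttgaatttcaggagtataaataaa
Hist1h2bk (chr13:22035721-22035820, plus strand): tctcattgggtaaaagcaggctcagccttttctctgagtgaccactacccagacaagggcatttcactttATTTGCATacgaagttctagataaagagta
The third set holds the promoters of the most abundant H1 genes with the letters AAACACA, the H1 box, in capitals.
Hist1h1d (chr13:23554882-23555031, plus strand): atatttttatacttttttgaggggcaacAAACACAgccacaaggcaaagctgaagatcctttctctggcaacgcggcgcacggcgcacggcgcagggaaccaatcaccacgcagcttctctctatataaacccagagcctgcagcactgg
Hist1h1c (chr13:23738657-23738806, plus strand): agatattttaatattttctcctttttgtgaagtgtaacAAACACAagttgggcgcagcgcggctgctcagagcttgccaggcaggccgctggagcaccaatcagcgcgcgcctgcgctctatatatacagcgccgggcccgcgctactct
Over the windows of 250 bases before to 50 bases after the start, read on both strands, GGTCCG was found in 11 of 12 H4 promoters (91.7%) and in 8.25% of all 32851 RefSeq promoters. AAACACA was found in 4 of 5 H1 promoters (80%) and in 7.18% of all promoters. ATTTGCAT was found in 5 of 14 H2B promoters (35.7%) and 4 of 13 H2A promoters (30.8%), against 1.74% of all promoters. CCAAT was found in 44 of 53 histone promoters (83%) and 37.4% of all promoters, but in 3 of the 12 H4 promoters (25%). TATAAA was found in 31 of 53 histone promoters (58.5%) and 13.6% of all promoters. No motif contains another on either strand, and a match describes the letters, not a bound site. The windows of H2A and H2B genes with nearby starts on opposite strands overlap, so the same match can count for both genes. The octamer printed for Hist1h2bk also lies in the window of Hist1h2ah. The H2A and H2B rates are therefore not independent.

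Some members are near copies of each other, and the next sequences show how near. They are printed because the affected genes have values that cannot be read as expression of a single gene; capitals mark CCAAT in the H2B pair and GGTCCG in the H4 pair.
Hist1h2bq (chr13:21810200-21810299, minus strand): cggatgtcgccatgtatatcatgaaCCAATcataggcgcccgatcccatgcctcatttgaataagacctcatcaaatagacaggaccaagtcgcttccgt
Hist1h2br (chr13:21833643-21833742, plus strand): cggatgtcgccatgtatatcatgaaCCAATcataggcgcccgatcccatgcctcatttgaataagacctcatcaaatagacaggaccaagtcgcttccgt
Hist1h4j (chr13:21734934-21735033, plus strand): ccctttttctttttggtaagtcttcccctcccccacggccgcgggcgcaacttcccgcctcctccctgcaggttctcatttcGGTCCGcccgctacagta
Hist1h4k (chr13:21750554-21750653, minus strand): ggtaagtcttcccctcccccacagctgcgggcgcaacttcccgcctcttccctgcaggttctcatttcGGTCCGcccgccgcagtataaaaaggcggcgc
Hist1h2bq and Hist1h2br shared an unbroken run of 300 of 300 bases of the RefSeq window, Hist1h4m and Hist1h4n 285, Hist2h3c1 and Hist2h3c2 231, and Hist1h4j and Hist1h4k 72. The sources used here do not say how tags with several equally good positions were placed, so the split of tags within such pairs is uncertain, that of the abundant Hist1h4n and the rare Hist1h4m included.

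Library depth was 7787114 to 19705167 tags in the hybridoma and 4422505 to 22806039 tags in CD4 cells, so that 1 tag was worth at most 0.128 RPM in the hybridoma and 0.226 RPM in CD4 cells. In the hybridoma both dose 0 libraries of number 2 stood apart in markers of B cells, with 875.3 RPM summed over the list in the engaged library and 1073 RPM in the unengaged library, against 77.1 to 257 RPM in the other 24. The T cell marker list summed to 977 to 1457 RPM over the hybridoma libraries (8 of 9 markers in the table) and 3331 to 4782 RPM over the CD4 libraries (9 of 9 markers), and the B cell list to 503 to 1131 RPM over the CD4 libraries (10 of 11 markers). Cd3e, a subunit of the T cell receptor complex, had 238.6 to 377 RPM in the hybridoma and 501 to 840 RPM in CD4 cells. Cd4 had 80.75 to 159.3 RPM in CD4 cells and is not in the hybridoma table. Of the macrophage and dendritic cell list 1 of 8 markers was in each table, of the natural killer cell list 1 of 6 in the hybridoma table and 2 of 6 in the CD4 table, and Lyz2, Csf1r, Ncr1 and Cd8a were in neither.

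Histone genes were among the most abundant transcripts of both systems. Together they took 8.48% to 17% of all tags in a hybridoma library. The range was 8.38% to 16% without the genes described below that stood high in single libraries. In the hybridoma, 6 of the 10 most abundant genes and 27 of the 50 most abundant were members, and 39 of the 62 averaged over 1000 RPM. In CD4 cells, 3 of the 10 and 14 of the 50 most abundant genes were members, and 26 of the 54 averaged over 1000 RPM. The median member had 1601 RPM in the hybridoma and 907 RPM in CD4 cells, against 22.4 RPM and 22.1 RPM for the median of all genes. Their starts were sharp: the main cluster of a member was 3 bp wide at the median in the hybridoma and at most 10 bp in 57 of 62, against a median of 46 bp and a share of 7.36% for other genes. In CD4 cells the median width was 2 bp, with 48 of 54 at most 10 bp wide, against 43 bp and 8.67% for other genes.

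The H4 genes led the list, and nearly all of them encode the same H4 protein. Hist1h4d averaged 9107 RPM over the hybridoma libraries, where it was the most abundant gene of the table, and 5566 RPM over the CD4 libraries, where it ranked 4. Hist2h2bb, an H2B gene of the chromosome 3 cluster, averaged 9102 RPM in the hybridoma and 4310 RPM in CD4 cells. Hist1h4c averaged 6152 RPM in the hybridoma, and Hist1h4n 5768 RPM in the hybridoma and 4549 RPM in CD4 cells. Within H1 the linker histone genes Hist1h1d and Hist1h1c led in the hybridoma at 2643 and 2520 RPM, and in CD4 cells Hist1h1c averaged 2203 RPM and Hist1h1d 1233 RPM. Within H2A the most abundant gene was Hist1h2ab in both systems, at 3440 RPM in the hybridoma and 1939 RPM in CD4 cells. Within H3 it was Hist1h3e, at 3469 RPM in the hybridoma and 2823 RPM in CD4 cells. At the low end, 5 members in the hybridoma and 6 in CD4 cells averaged under 20 RPM. The lowest was Hist1h2aj, an H2A gene, at 1.81 RPM in the hybridoma and 2.27 RPM in CD4 cells.

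A few members reached at least 10 times their own median in single libraries: 8 genes in the hybridoma and 4 in CD4 cells. Hist1h2br, an H2B gene, stood at 6267 RPM in 1 engaged and 4657 RPM in 1 unengaged hybridoma library at 10000 nM and at 3.04 to 6.49 RPM in the other 24. Hist1h4k, an H4 gene, stood at 254 to 4904 RPM in 8 hybridoma libraries of 8 groups and at 10.1 to 22.1 RPM in the other 18. Hist2h3c1, an H3 gene, stood at 1282 to 5735 RPM in 3 CD4 libraries of 3 groups and at 9.27 to 23.4 RPM in the rest. The other genes with such libraries were Hist1h2ao, Hist1h2ap, Hist1h2bq, Hist1h4j and Hist2h3c2 in the hybridoma, and Hist1h2ao, Hist1h2ap and Hist1h2br in CD4 cells. The sets of high libraries differed between genes, but some libraries were high for several. In the hybridoma Hist1h2ao and Hist1h2bq shared engaged library 1 of dose 0 and unengaged library 2 of 1 nM. Hist1h2ap and Hist1h2br shared engaged library 1 of 10000 nM. In CD4 cells Hist1h2ap, Hist1h2br and Hist2h3c1 were all high in unengaged library 2 of 10 ng/ml. All these genes were named after their values were seen, and summed values that they move are also given without them.

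With rising antigen dose, histone mRNA took a smaller share of the hybridoma's tags. Without PD-1 engagement, the summed share averaged 14.4% ± 1.49 at dose 0, and 15.2% ± 1.66 and 14.5% ± 0.295 at the low doses of 1 nM and 10 nM (SD, n = 2 each). It averaged 10.8% ± 0.167 at 100 nM and 10.4% ± 1.1 at 1000 nM (SD, n = 2 each), and 9.26% ± 0.738 at 10000 nM (SD, n = 3). The 3 libraries at 10000 nM held 8.48%, 9.34% and 9.95%, against 15.5% and 13.4% at dose 0. The libraries at 100 nM and above all lay below those at 0, 1 and 10 nM. Without the genes with isolated high libraries, the shares were 8.48%, 9.33% and 9.43% at 10000 nM and 15% and 13.4% at dose 0.

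**Figure D1:**
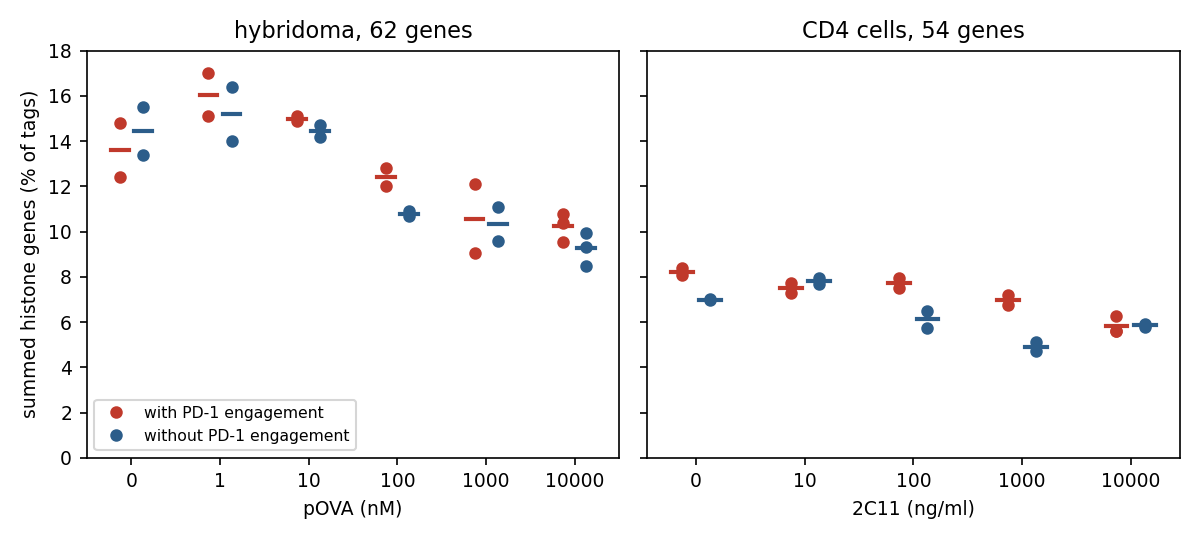
Summed histone tags as a percentage of all tags (vertical axis) by dose of stimulus (horizontal axis) in the hybridoma (62 genes) and CD4 cells (54 genes). Points are libraries with PD-1 engagement (red, left in each pair) and without it (blue, right), and bars are group means; hybridoma shares without engagement averaged 9.26% at 10000 nM and 14.4% at dose 0.

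All 5 histone types had smaller shares at the top dose. H1 genes took 0.589% ± 0.0362 of tags at 10000 nM and 0.945% ± 0.0246 at dose 0. H2A genes took 1.73% ± 0.182 at 10000 nM and 2.79% ± 0.316 at dose 0. H2B genes took 2.37% ± 0.371 at 10000 nM and 3.54% ± 0.219 at dose 0. For each of these 3 types, and for H3 and H4 below, the means differed by more than either SD. H3 genes took 1.73% ± 0.2 at 10000 nM and 2.69% ± 0.305 at dose 0. H4 genes took 2.83% ± 0.203 at 10000 nM and 4.48% ± 0.628 at dose 0 (SD, n = 3 at 10000 nM and 2 at dose 0, throughout this paragraph). Without the genes with isolated high libraries, H2B genes took 2.21% ± 0.151 at 10000 nM and 3.53% ± 0.218 at dose 0, and H4 genes 2.83% ± 0.203 at 10000 nM and 4.23% ± 0.282 at dose 0.

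Gene by gene, 47 of 62 members were lower at 10000 nM than at dose 0 and none was higher (limma on log2(RPM + 1), adjusted p under 0.05 over all genes), where 20.8% of all genes were lower and 8.09% higher. The median member differed by -0.76 on the log2 scale and the median of all genes by -0.18. The members that fell were 4 of 5 H1, 12 of 16 H2A, 14 of 17 H2B, 8 of 11 H3 and 9 of 13 H4 genes, with type medians of -0.83, -0.65, -0.79, -0.54 and -0.87. The levels at 10000 nM lay wholly below those at dose 0 for 57 of 62 members and for 35% of all genes. The count depended on the dose 0 libraries: 31 members were lower without library 1 of dose 0 and 36 without both dose 0 libraries of number 2, which stood apart in B cell markers. Under edgeR 27 members were lower and 1 (Hist1h2br) higher, with 16.9% of all genes lower and 13.4% higher, and after quantile normalization 38 were lower, with 14.2% of all genes lower and 12.9% higher.

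Among called members the largest falls were in H2B genes and in the H3 gene Hist1h3g. As a type, H3 had the smallest median fall. Hist1h2bl, an H2B gene, had 444.4, 533.2 and 435.1 RPM at 10000 nM, against 1203 and 1081 RPM at dose 0. Its difference was -1.28 on the log2 scale (SE 0.13, adjusted p = 4.77e-07). The groups lay far apart and the libraries of each were close together. Hist3h2ba, an H2B gene of chromosome 11, had 42.21, 48.4 and 37.37 RPM at 10000 nM, against 127 and 83.34 RPM at dose 0 (log2 difference -1.26, SE 0.15, adjusted p = 4.34e-06). Hist1h3g, an H3 gene, had 618.7, 673.6 and 619.6 RPM at 10000 nM, against 1495 and 1501 RPM at dose 0 (log2 difference -1.23, SE 0.12, adjusted p = 5.86e-07). For both, every library at the top dose lay below every library at dose 0. Hist2h2be, a sparsely expressed H2B gene, had 5.69, 5.86 and 5.01 RPM at 10000 nM, against 18.45 and 11.15 RPM at dose 0 (log2 difference -1.24, SE 0.21, adjusted p = 2.81e-04). Hist3h2bb-ps, a pseudogene by its symbol and the neighbour of Hist3h2ba, had 35.12, 40.35 and 42.38 RPM at 10000 nM, against 110.7 and 75.02 RPM at dose 0 (log2 difference -1.20, SE 0.17, adjusted p = 3.93e-05).

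Among the abundant members, Hist2h4, an H4 gene, had 1633, 1780 and 1670 RPM at 10000 nM, against 3765 and 3481 RPM at dose 0 (log2 difference -1.10, SE 0.11, adjusted p = 6.77e-07). Hist1h1d, a linker histone gene, had 1700, 1622 and 1674 RPM at 10000 nM, against 3343 and 3090 RPM at dose 0 (log2 difference -0.95, SE 0.10, adjusted p = 1.14e-06). Hist1h2ab had 2231, 2300 and 2420 RPM at 10000 nM, against 4362 and 4020 RPM at dose 0 (log2 difference -0.85, SE 0.12, adjusted p = 5.02e-05). All 3 genes were called lower in every alternative fit. The most abundant pair did not pass the test. Hist1h4d had 7634, 9263 and 7901 RPM at 10000 nM, against 10611 and 9188 RPM at dose 0 (log2 difference -0.26, SE 0.13, adjusted p = 0.141), and its groups overlapped. Hist2h2bb had 5469, 6810 and 8338 RPM at 10000 nM, against 11009 and 8837 RPM at dose 0 (log2 difference -0.54, SE 0.25, adjusted p = 0.114). Hist1h4c had 5715, 6062 and 5076 RPM at 10000 nM, against 7220 and 6365 RPM at dose 0 (log2 difference -0.28, SE 0.10, adjusted p = 0.0478), a call that was lost under edgeR (adjusted p = 0.339) and after quantile normalization (adjusted p = 0.913). It was also lost without library 1 (adjusted p = 0.295) or 2 (adjusted p = 0.0634) of dose 0. The same held without library 1 (adjusted p = 0.0705) or 3 (adjusted p = 0.194) of 10000 nM. With replicate number as a block in limma the call of Hist1h4c was lost too (adjusted p = 0.116).

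Lower doses showed where in the series the members moved. At 1 nM and 10 nM no member was called by limma or edgeR, with 4 members at 1 nM, all of them higher, and 0 at 10 nM at an unadjusted p under 0.05; of all genes 0% were called in either direction at 1 nM, and 0.0297% higher and 0% lower at 10 nM. At 100 nM 17 members were lower and 0 higher, where 3.19% of all genes were lower and 2.84% higher, with a median member of -0.45 against -0.11 over all genes. At 1000 nM 29 members were lower and 0 higher, where 23.4% of all genes were lower and 7.14% higher, with a median member of -0.48 against -0.24. After quantile normalization 26 members were lower at 1000 nM, with 13.5% of all genes lower and 12.6% higher. Hist1h4n, whose promoter is nearly that of Hist1h4m, had 6789 and 6878 RPM at dose 0, 6525 and 6602 RPM at 1 nM, and 6100 and 6758 RPM at 10 nM without PD-1 engagement. It had 4617 and 5088 RPM at 100 nM, 4907 and 4681 RPM at 1000 nM, and 4247, 4200 and 3862 RPM in the top dose group. Its libraries at 100 nM and above all lay below those at lower doses (top dose log2 difference -0.74, SE 0.08, adjusted p = 2.72e-06). The top dose call of Hist1h4n was lost after quantile normalization (adjusted p = 0.0958).

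**Figure D2:**
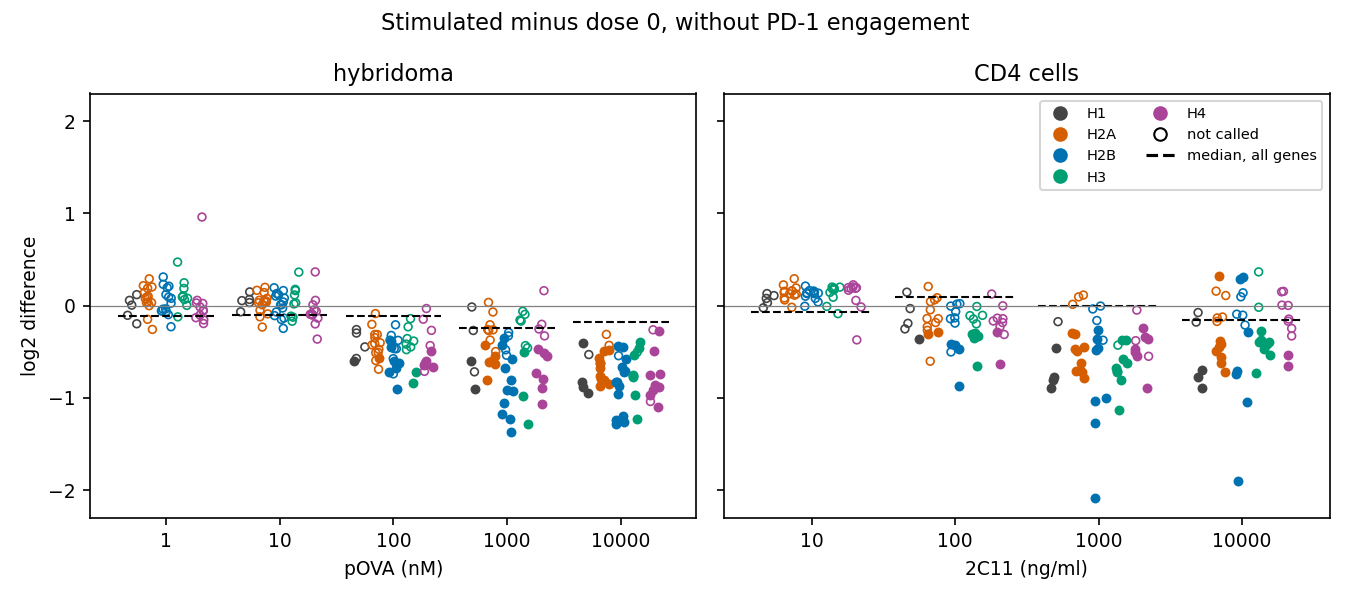
Difference on the log2(RPM + 1) scale between stimulated and dose 0 libraries without PD-1 engagement (vertical axis) by dose and histone type (horizontal axis); each point is a gene, filled where called, and the dashed line is the median of all genes. Genes with isolated high libraries (8 in the hybridoma, 4 in CD4 cells) are left out; in the hybridoma 47 of 62 members were lower at 10000 nM.

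In CD4 cells the summed share was lowest at 1000 ng/ml. Without PD-1 engagement it averaged 7% ± 0.0492 at dose 0, 7.83% ± 0.201 at 10 ng/ml, 6.12% ± 0.538 at 100 ng/ml, 4.92% ± 0.276 at 1000 ng/ml and 5.87% ± 0.0753 at 10000 ng/ml (SD, n = 2 each, 3 at 10000 ng/ml). Without the genes with isolated high libraries these means were 6.94%, 7.6%, 6.11%, 4.91% and 5.78% in the same order of doses. The 3 libraries at 10000 ng/ml held 5.89%, 5.79% and 5.93%, against 6.96% and 7.03% at dose 0. Without the genes with isolated high libraries the top dose held 5.88%, 5.54% and 5.93%, against 6.96% and 6.92% at dose 0. The groups did not overlap either way. H1 genes took 0.405% ± 0.0146 of tags at 10000 ng/ml and 0.604% ± 0.0182 at dose 0, and H3 genes 1.12% ± 0.0781 at 10000 ng/ml and 1.47% ± 0.00691 at dose 0. H2A genes took 1.03% ± 0.105 at 10000 ng/ml and 1.17% ± 0.0303 at dose 0, and H2B genes 1.52% ± 0.0326 at 10000 ng/ml and 1.74% ± 0.0979 at dose 0. H4 genes took 1.79% ± 0.0639 at 10000 ng/ml and 2.02% ± 0.104 at dose 0 (SD, n = 3 at 10000 ng/ml and 2 at dose 0, for all types). Without the genes with isolated high libraries, H2A genes took 0.946% ± 0.0471 at 10000 ng/ml and 1.17% ± 0.0305 at dose 0, and H2B genes 1.52% ± 0.0325 at 10000 ng/ml and 1.68% ± 0.019 at dose 0.

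At 10000 ng/ml 26 of 54 members were lower than at dose 0 and 3 were higher, where 40.1% of all genes were lower and 27.5% higher. The median member differed by -0.26 and the median of all genes by -0.15 on the log2 scale. The lower members were 3 of 5 H1, 7 of 15 H2A, 6 of 13 H2B, 8 of 11 H3 and 2 of 10 H4 genes. The share of members that fell was near the share of all genes. At 1000 ng/ml 38 members were lower and 0 higher, where 29.9% of all genes were lower and 31.1% higher, with a median member of -0.47 and a median of all genes of -0.0035. At 100 ng/ml 14 members were lower and 0 higher, where 7.21% of all genes were lower and 19.2% higher; after quantile normalization 11 members were lower, with 13.6% of all genes lower and 14% higher. At 10 ng/ml limma and edgeR called no member, with 4 and 13 at an unadjusted p under 0.05, all of them higher than at dose 0, and 0% of all genes were called. The levels at 10 ng/ml lay wholly above those at dose 0 for 37 of 54 members and wholly below for 0, where 9.35% of all genes lay above and 32.8% below.

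Among members without isolated high libraries Hist3h2ba fell most, to 46.41, 34.81 and 36.94 RPM at 10000 ng/ml, against 158.3 and 139.7 RPM at dose 0 (log2 difference -1.90, SE 0.12, adjusted p = 9.03e-11). At 1000 ng/ml it had 35.6 and 33.17 RPM (log2 difference -2.08, SE 0.13, adjusted p = 1.68e-10). Hist2h2be had 6.995, 5.174 and 5.706 RPM at 10000 ng/ml, against 11.72 and 14.92 RPM at dose 0 (log2 difference -1.04, SE 0.27, adjusted p = 0.00208). These H2B genes were also among the largest falls of the hybridoma. The H1 genes Hist1h1a and Hist1h1c fell as well. Hist1h1a had 121.4, 120.4 and 129.9 RPM at 10000 ng/ml, against 224.9 and 238.4 RPM at dose 0 (log2 difference -0.90, SE 0.08, adjusted p = 1.70e-08). Hist1h1c had 1621, 1517 and 1699 RPM at 10000 ng/ml, against 2686 and 2805 RPM at dose 0 (log2 difference -0.77, SE 0.08, adjusted p = 9.46e-08). Hist1h2br, called lower at -3.51 (SE 1.53, adjusted p = 0.0485), had 5.631, 4.867 and 7.357 RPM at 10000 ng/ml, against 4.502 and 1120 RPM at dose 0. That call rested on the library at 1120 RPM, without which the difference was 0.32 (adjusted p = 0.852). It was also lost without any 1 of the 10000 ng/ml libraries 1, 2 and 3 (adjusted p = 0.0835, 0.0894 and 0.0713).

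Hist1h4d, the leading H4 gene, had 5151, 5013 and 5384 RPM at 10000 ng/ml, against 5216 and 5104 RPM at dose 0 (log2 difference 0.01, SE 0.08, adjusted p = 0.954), and its groups overlapped. The 3 members that rose were 1 H2A and 2 H2B genes, and all 3 fell in the hybridoma. Hist1h2bj, an H2B gene, had 2489, 2304 and 2384 RPM at 10000 ng/ml, against 1866 and 1988 RPM at dose 0 (log2 difference 0.31, SE 0.07, adjusted p = 7.93e-04). In the hybridoma it had 1661, 2065 and 1659 RPM at 10000 nM, against 3061 and 3285 RPM at dose 0 (log2 difference -0.83, SE 0.12, adjusted p = 8.29e-05). Hist1h2ah, an H2A gene, had 1477, 1310 and 1303 RPM at 10000 ng/ml, against 1101 and 1070 RPM at dose 0 (log2 difference 0.33, SE 0.07, adjusted p = 5.98e-04). In the hybridoma it had 1521, 1756 and 1838 RPM at 10000 nM, against 3039 and 2752 RPM at dose 0 (log2 difference -0.77, SE 0.17, adjusted p = 0.00253). Neither gene's groups overlapped in either system. Hist1h2bc, an H2B gene, had 2255, 2092 and 2218 RPM at 10000 ng/ml, against 1750 and 1820 RPM at dose 0 (log2 difference 0.29, SE 0.09, adjusted p = 0.00505). In the hybridoma it had 2497, 2268 and 2207 RPM at 10000 nM, against 3107 and 3216 RPM at dose 0 (log2 difference -0.45, SE 0.09, adjusted p = 0.00113), a call lost under edgeR (adjusted p = 0.0634) and after quantile normalization (adjusted p = 0.409).

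The difference between the systems was tested in 1 fit over both tables. Of the 54 shared members, 17 had a lower stimulation response in the hybridoma than in CD4 cells and 1 a higher one, where 22.3% of 9347 shared genes were lower and 17.6% higher. Stimulus, dose scale, cell source and table differ together between the systems and cannot be told apart. Hist1h2bj differed by -1.14 (SE 0.15, adjusted p = 2.09e-07), hybridoma minus CD4 cells. Hist1h2ah differed by -1.09 (SE 0.19, adjusted p = 3.15e-05), Hist1h2bk by -1.01 (SE 0.18, adjusted p = 2.85e-05) and Hist1h2bc by -0.74 (SE 0.12, adjusted p = 1.35e-05). Hist3h2ba was the member with the higher response, less negative in the hybridoma by 0.64 (SE 0.20, adjusted p = 0.0103).

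The genes lay in 7 stretches of the genome, with coordinates of build mm9 as in the deposited tables. A short stretch on chromosome 13, from 22127466 to 22135066, held Hist1h2ah, Hist1h2bk, Hist1h4i, Hist1h2ag and Hist1h2bj. In the hybridoma all 5 fell, with a median of -0.83. In CD4 cells 2 rose and 0 fell, with a median of 0.15. The stretch from 23622953 to 23855535 on chromosome 13 held 26 members in the hybridoma, of which 22 fell (median -0.66), and 22 in CD4 cells, of which 13 fell and 1 rose (median -0.38). The stretch from 21808052 to 21925614 on the same chromosome held 19 members in the hybridoma, of which 12 fell, and 16 in CD4 cells, of which 8 fell. On chromosome 3, 8 members lay from 96023788 to 96073622, and 4 fell in each system. As given above, a larger share of all genes was lower at the top dose in CD4 cells than in the hybridoma. In CD4 cells 8 of 16 and 4 of 8 were not far above that share, so equal counts in both systems do not stand for equal results. The stretches were compared after their values were seen, and carry no test of their own.

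H2A and H2B genes often lie head to head. There were 11 such pairs with starts 202 to 237 bp apart in the hybridoma (median 233 bp) and 8 pairs 213 to 238 bp apart in CD4 cells (median 235 bp). Sharing the stretch between the starts did not go with equal levels. Hist1h2aj and Hist1h2bm, 220 bp apart, averaged 1.81 and 514 RPM in the hybridoma. Hist1h2an and Hist1h2bp averaged 1616 and 432 RPM, whereas Hist1h2ag and Hist1h2bj averaged 2561 and 2387 RPM. In the hybridoma Hist1h2bl fell by 1.28 on the log2 scale and its partner Hist1h2ai, an H2A gene, by 0.57 (SE 0.21, adjusted p = 0.0448); the difference between the 2 genes was not tested. The call of Hist1h2ai was lost without library 1 (adjusted p = 0.196) or 2 (adjusted p = 0.0879) of dose 0, without library 1 (adjusted p = 0.126) or 2 (adjusted p = 0.0825) of 10000 nM, under edgeR (adjusted p = 0.236), after quantile normalization (adjusted p = 0.201) and when B cell marker level was a covariate (its adjusted p was then 0.0622).

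PD-1 engagement went with higher histone levels in stimulated CD4 cells. Taken over the 4 stimulated doses, 34 of 54 members were higher with engagement and none was lower, where 4.48% of all genes were higher and 41.2% lower. The median member differed by 0.19 and the median of all genes by -0.14 on the log2 scale. The members that rose were 2 of 5 H1, 9 of 15 H2A, 11 of 13 H2B, 9 of 11 H3 and 3 of 10 H4 genes. After quantile normalization 31 members were higher, with 14.1% of all genes higher and 12.7% lower, and under edgeR 44 were higher, with 15.9% of all genes higher and 13.1% lower. Without library 1 of the unengaged 10 ng/ml group, 1 member was lower. The B cell marker list moved the same way, with 8 of 10 markers higher and none lower, among them Cd22 by 0.72 and Cd79b by 0.58. Its sum was 1004 and 1121 RPM with engagement against 667 and 804 RPM without it at 100 ng/ml, 794 and 983 RPM with engagement against 503 and 651 RPM without it at 1000 ng/ml, and 1131, 1060 and 802 RPM with engagement against 593, 854 and 535 RPM without it at 10000 ng/ml. With the mean B cell marker level as a covariate 33 members were higher and 1 lower.

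The summed share was higher in every engaged library than in every unengaged one at 0, 100 and 1000 ng/ml, and the groups overlapped at 10 and 10000 ng/ml. At 0 ng/ml it was 8.07% and 8.39% with engagement and 6.96% and 7.03% without it, or 7.55% and 8.26% against 6.96% and 6.92% without the genes with isolated high libraries. At 10 ng/ml it was 7.71% and 7.27% with engagement and 7.69% and 7.97% without it, and the groups overlapped. At 100 ng/ml it was 7.52% and 7.95% with engagement and 6.5% and 5.74% without it. At 1000 ng/ml it was 6.74% and 7.22% with engagement and 4.72% and 5.11% without it, or 6.73% and 6.65% against 4.72% and 5.11% without the genes with isolated high libraries. At 10000 ng/ml it was 6.27%, 5.6% and 5.63% with engagement and 5.89%, 5.79% and 5.93% without it, and the groups overlapped again. At 1000 ng/ml H2B genes took 1.78% ± 0.0181 of tags with engagement and 1.28% ± 0.095 without it, and H4 genes 1.99% ± 0.08 with engagement and 1.51% ± 0.0983 without it (SD, n = 2).

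By dose, 31 members were higher with engagement at 100 ng/ml, where 1.91% of all genes were higher and 37.3% lower, and 36 at 1000 ng/ml, where 3.3% of all genes were higher and 19.4% lower. No member was lower at either dose. After quantile normalization these counts were 21 at 100 ng/ml, with 8.24% of all genes higher and 8.49% lower. They were 23 at 1000 ng/ml, with 8.25% of all genes higher and 6.21% lower. Under edgeR they were 42 and 43, but its shares of all genes are not given, so these counts have no background here. At 10 ng/ml no member was called by limma or edgeR, with 5 at an unadjusted p under 0.05 by limma, where 0.0489% of all genes were higher and 0.705% lower. At 10000 ng/ml 2 members were higher and 1 lower, where 5.89% of all genes were higher and 2.58% lower: Hist1h1a rose by 0.30 (adjusted p = 0.0192) and the H2A gene Hist2h2ab by 0.30 (adjusted p = 0.0211), and the H4 gene Hist1h4a fell by 0.48 (adjusted p = 0.0133). These were named because so few were called. At dose 0 1 member was higher, Hist1h2bk by 0.36 (SE 0.09, adjusted p = 0.022), where 0.763% of all genes were higher and 13.6% lower. After quantile normalization none was called at dose 0. There edgeR called 16 members, and its share of all genes is not given. At an unadjusted p under 0.05 edgeR had 44 members higher and 1 lower at dose 0. The levels with engagement lay wholly above those without it for 38 of 54 members at dose 0 (6.03% of all genes), 6 at 10 ng/ml (7.53%), 41 at 100 ng/ml (6.51%), 47 at 1000 ng/ml (14.5%) and 5 at 10000 ng/ml (14.3%). They lay wholly below for 0 members at dose 0 (61.8% of all genes), 12 at 10 ng/ml (42%), 0 at 100 ng/ml (62.8%), 1 at 1000 ng/ml (52.9%) and 4 at 10000 ng/ml (10.4%). The difference between engagement under stimulation and at dose 0 was called for no member by limma or edgeR, with 2 and 3 at an unadjusted p under 0.05, where 0% of all genes were higher and 0.0196% lower. In the hybridoma that difference was likewise called for no member, with 3 members at an unadjusted p under 0.05, or 35 higher and 2 lower with the replicate block, which called 0.0693% of all genes lower and 0% higher.

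**Figure D3:**
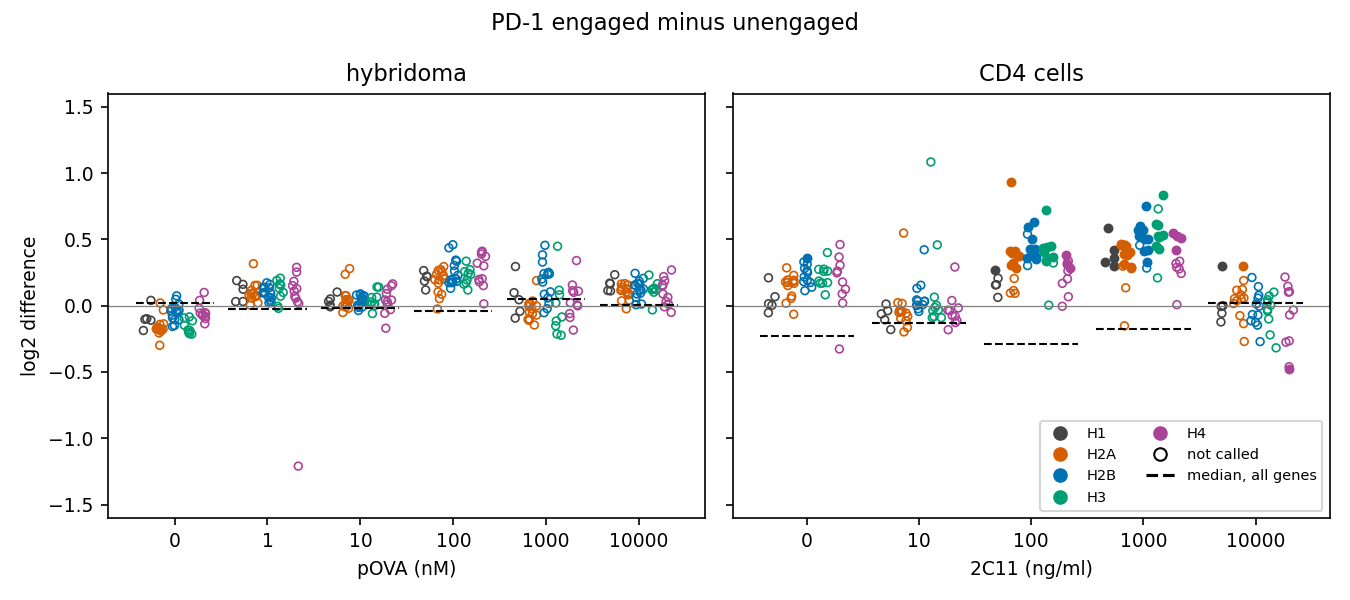
Difference on the log2(RPM + 1) scale between libraries with and without PD-1 engagement (vertical axis) by dose and histone type (horizontal axis); each point is a gene, filled where called without a replicate block, and the dashed line is the median of all genes. Genes with isolated high libraries are left out; in CD4 cells 31 members were higher at 100 ng/ml, 36 at 1000 ng/ml and 2 at 10000 ng/ml.

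Hist2h3b, an H3 gene of chromosome 3, rose most with engagement. It had 2123 and 1906 RPM with engagement and 1592 and 1345 RPM without it at 10 ng/ml. At 100 ng/ml it had 1397 and 1919 RPM with engagement and 1028 and 953.6 RPM without it. At 1000 ng/ml it had 1181 and 1345 RPM with engagement and 715.2 and 698.9 RPM without it. The groups did not overlap at these 3 doses. At 10000 ng/ml it had 897.1, 949.8 and 1020 RPM with engagement and 905, 828.5 and 1094 RPM without it, and the groups overlapped. Over the stimulated doses its difference was 0.51 (SE 0.07, adjusted p = 3.80e-05). Hist3h2ba had 130 and 121.7 RPM with engagement and 88.96 and 73.3 RPM without it at 100 ng/ml. At 1000 ng/ml it had 62.53 and 54.67 RPM with engagement and 35.6 and 33.17 RPM without it. Its difference over the stimulated doses was 0.34 (SE 0.06, adjusted p = 3.79e-04), and at 10000 ng/ml its groups overlapped.

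Abundant members showed smaller differences of the same sign. Hist2h2bb had 4773 and 4717 RPM with engagement and 3119 and 3261 RPM without it at 1000 ng/ml (over the stimulated doses 0.28, SE 0.04, adjusted p = 3.51e-05). Hist2h4 had 2351 and 2148 RPM with engagement and 1530 and 1538 RPM without it at 1000 ng/ml (0.28, SE 0.04, adjusted p = 7.85e-05). Hist1h4d had 6322 and 6140 RPM with engagement and 4195 and 4558 RPM without it at 1000 ng/ml (0.22, SE 0.04, adjusted p = 3.92e-04), a call that was lost after quantile normalization (adjusted p = 0.136). For all 3 genes the libraries of the groups lay apart at that dose. Hist1h2bj had 2528 and 2599 RPM with engagement and 1808 and 2041 RPM without it at 1000 ng/ml (0.24, SE 0.04, adjusted p = 9.89e-05; after quantile normalization adjusted p = 0.0778). Hist1h4n did not pass the test (0.08, SE 0.04, adjusted p = 0.172), nor did Hist1h1d (0.06, SE 0.05, adjusted p = 0.261). Under edgeR both were called higher (adjusted p = 0.00127 for Hist1h4n and 0.00305 for Hist1h1d), and Hist1h4n was also called by limma without engaged library 2 of 100 ng/ml (adjusted p = 0.0486). 2 rare members were also called, Hist2h3c2 by 0.45 (SE 0.16, adjusted p = 0.0274) at 3.29 to 13 RPM and Hist1h2aj by 0.38 (SE 0.14, adjusted p = 0.0363) at 0.702 to 4.98 RPM. Leaving out 1 library ended the call of Hist2h3c2 in 5 cases (adjusted p 0.052 to 0.074) and of Hist1h2aj in 10 (adjusted p 0.0553 to 0.112); edgeR did not call Hist1h2aj (adjusted p = 0.0519).

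The stimulation and engagement comparisons share the unengaged libraries, so their values for a gene are not independent. Side by side in CD4 cells, Hist2h3b differed by -0.73 with stimulation at 10000 ng/ml and by 0.51 with engagement, Hist2h4 by -0.65 and 0.28, and Hist1h2bj by 0.31 and 0.24.

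**Figure D4:**
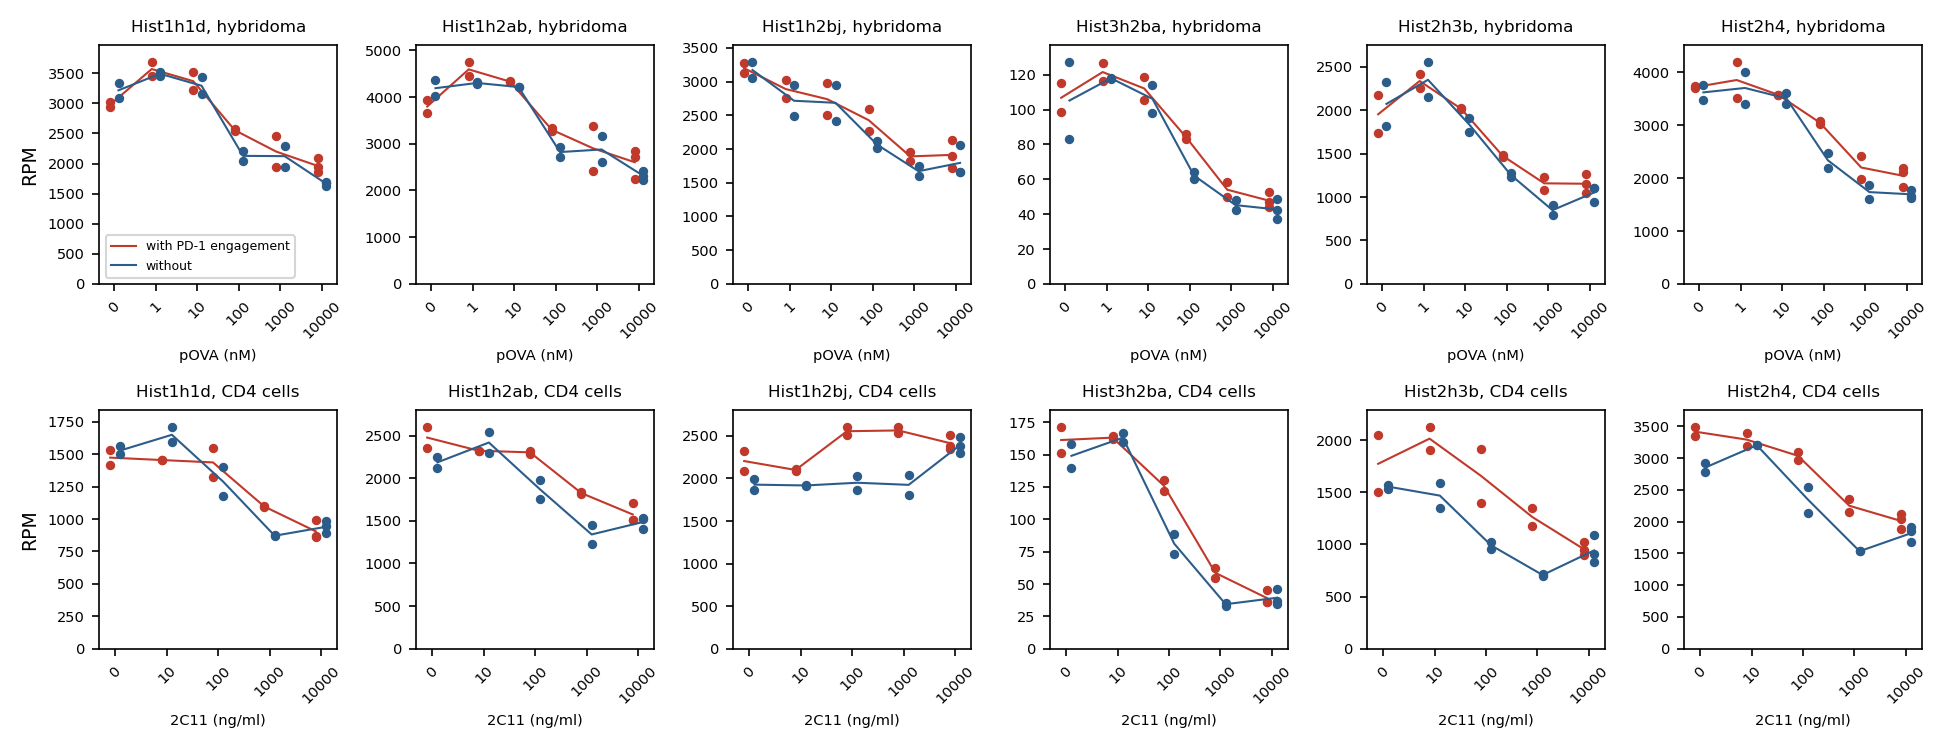
RPM per library (vertical axis) by dose (horizontal axis) for Hist1h1d, Hist1h2ab, Hist1h2bj, Hist3h2ba, Hist2h3b and Hist2h4 in the hybridoma and CD4 cells; red points are libraries with PD-1 engagement, blue points those without it, and lines join group means. Hist1h2bj reads 2489, 2304 and 2384 RPM at 10000 ng/ml without engagement in CD4 cells and 1661, 2065 and 1659 RPM at 10000 nM in the hybridoma.

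In the hybridoma few members were called with PD-1 engagement. Over the 5 stimulated doses 1 of 62 members, Hist1h4n, was higher with engagement and none lower, where 0.0594% of all genes were higher and 0.872% lower. The median member differed by 0.10 on the log2 scale. Hist1h4n had 7788 and 7136 RPM with engagement and 6525 and 6602 RPM without it at 1 nM, and 5936 and 6004 RPM with engagement and 4617 and 5088 RPM without it at 100 nM. At 10000 nM it had 4636, 5010 and 4680 RPM with engagement and 4247, 4200 and 3862 RPM without it. The groups lay apart at these doses, and the difference over doses was 0.19 (SE 0.04, adjusted p = 0.0154). The call was lost without library 1 of the unengaged 10 nM group (adjusted p = 0.0555) or of the unengaged 100 nM group (adjusted p = 0.0523), under edgeR (adjusted p = 0.116) and after quantile normalization (adjusted p = 0.353). The count of higher members was 0 without either of these libraries. It was 2 without unengaged library 2 of 1 nM or of 1000 nM, or without engaged library 1 of 1 nM or 2 of 10000 nM, and 3 without engaged library 1 of 1000 nM or of 10000 nM. edgeR called no member, with 13 at an unadjusted p under 0.05.

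Libraries of the same dose and number deviated together in the hybridoma, so the comparison was also fitted within number. With that replicate block 18 of 62 members were higher with engagement and none lower, where 1.99% of all genes were higher and 4.52% lower. They were 3 H1, 1 H2A, 7 H2B, 2 H3 and 5 H4 genes. Hist2h4 differed by 0.22 (SE 0.03, adjusted p = 2.83e-04), Hist2h3b by 0.19 (SE 0.03, adjusted p = 0.00161), Hist3h2ba by 0.19 (SE 0.04, adjusted p = 0.00831) and Hist1h1d by 0.12 (SE 0.03, adjusted p = 0.0137) in that fit. At 100 nM Hist2h4 had 3026 and 3081 RPM with engagement and 2192 and 2480 RPM without it, at 1000 nM 1992 and 2411 RPM with engagement and 1606 and 1866 RPM without it, and at 10000 nM 1838, 2115 and 2186 RPM with engagement and 1633, 1780 and 1670 RPM without it. The groups lay apart at all 3 doses. Without the block no member was called at a single dose by limma, and edgeR called 1 at 10000 nM; at an unadjusted p under 0.05 limma had 0, 2, 1, 10, 4 and 5 members at 0, 1, 10, 100, 1000 and 10000 nM. Of all genes without the block, 0% were called at 0 and 1 nM, 0% higher and 0.0396% lower at 10 nM, 0.00991% higher and 0.485% lower at 100 nM, 0.00991% higher and 0.0693% lower at 1000 nM, and 0.0693% higher and 0.337% lower at 10000 nM. With the block 13 members were higher at 100 nM (0.456% of all genes) and 5 at 1000 nM (5.32%). At 10000 nM 4 were higher with the block (0.921%). The count at 1000 nM was not far above the share of all genes. No member was called with the block at 0, 1 or 10 nM. Its shares of all genes at those doses, and its shares lower at single doses, are not given. At an unadjusted p under 0.05 the block had 1 member higher and 13 lower at dose 0, 8 higher and 1 lower at 1 nM, and 1 higher and 0 lower at 10 nM. The levels with engagement lay wholly above those without it for 0 of 62 members at dose 0 (10.7% of all genes), 18 at 1 nM (8.8%) and 6 at 10 nM (9.14%). They did so for 40 members at 100 nM (10.7%), 11 at 1000 nM (17.4%) and 5 at 10000 nM (3.09%). They lay wholly below for 11 members at dose 0 (7.79% of all genes), 2 at 1 nM (15.5%) and 1 at 10 nM (12.2%). At the higher doses this held for 0 members at 100 nM (23.1%), 2 at 1000 nM (9.81%) and 0 at 10000 nM (3.29%).

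The summed share in the hybridoma at dose 0 was 14.8% and 12.4% with engagement and 15.5% and 13.4% without it, lower with engagement within both replicate numbers. At 1 nM it was 15.1% and 17% with engagement and 14% and 16.4% without it, and these groups, like those of dose 0, overlapped. At 10 nM it was 15.1% and 14.9% with engagement and 14.2% and 14.7% without it. At 100 nM it was 12.8% and 12% with engagement and 10.9% and 10.7% without it. The groups lay apart at both doses, but narrowly at 10 nM. There engaged library 2 included Hist1h4j, a gene with isolated high libraries, at 2522 RPM. Shares without such genes are not given at 10 nM, so that separation may rest on them. At 10000 nM it was 9.56%, 10.4% and 10.8% with engagement and 8.48%, 9.34% and 9.95% without it, and at 1000 nM 9.04% and 12.1% with engagement and 9.6% and 11.1% without it; at both doses the groups overlapped. Without the genes with isolated high libraries, the shares at 10000 nM were 8.38%, 10.4% and 10.7% with engagement and 8.48%, 9.33% and 9.43% without it, so that in number 1 the engaged library lay below its unengaged partner. In the same way they were 13.9% and 12.4% with engagement and 15% and 13.4% without it at dose 0, and 12.5% and 12% with engagement and 10.7% and 10.6% without it at 100 nM. The effect of engagement was compared between the systems in the joint fit: 1 of 54 members, Hist2h3b, had a lower effect in the hybridoma (difference -0.32, SE 0.10, adjusted p = 0.0294) and none a higher one, where 0.899% of genes were lower and 12.2% higher. After quantile normalization none was called, with 2.08% of genes lower and 1.54% higher.

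Most members varied together across libraries. The median Pearson correlation between 2 members was 0.831 over the 26 hybridoma libraries (54 genes without isolated high libraries) and 0.697 over the 22 CD4 libraries (50 genes); libraries share groups and depth, and the values are a description. Against the summed histone level the lowest correlations in the hybridoma were 0.362 for the rare Hist1h4m, 0.52 for Hist2h2aa2 and 0.764 for Hist1h4c. In CD4 cells they were -0.156 for Hist2h2ab, -0.087 for Hist1h2ah and 0.103 for Hist1h2bj. The highest were 0.992 for Hist1h3b in the hybridoma and 0.985 for Hist1h3h in CD4 cells. Among other genes of at least median level, those most like the summed histone level were Mns1 (0.946), Bola1 (0.93), Pycard (0.924), Themis (0.917) and Fam111a (0.916) of 4997 genes over 26 hybridoma libraries. Over 22 CD4 libraries they were Gm5617 (0.96), Gm8017 (0.936), Scand1 (0.921), Pttg1 (0.921) and Gngt2 (0.917) of 5064 genes.

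Genes that work with histones or with DNA replication were counted from lists. At 10000 nM in the hybridoma 20.8% of all genes were lower and 8.09% higher, against which the counts of each list stand. Of 36 replication genes 27 were lower and 0 higher, with E2f2 and E2f1, transcription factors that drive S phase genes, at -1.12 and -1.04. Of 19 genes of G2 and mitosis 13 were lower and 0 higher, with the proliferation marker Mki67 at -0.78. Of 15 genes of histone mRNA processing and of the histone locus body 5 were lower, with the kinase gene Cdk2 at -0.59 and Casp8ap2 at -0.56. Of 17 histone chaperone genes 5 were lower, with Chaf1a and Chaf1b, subunits of the chromatin assembly factor, at -0.63 and -0.60. None of 9 replication-independent histone genes was called by limma, with 2 at an unadjusted p under 0.05, and edgeR called 1 higher. By edgeR 18 replication genes, 8 mitotic genes, 4 processing genes and 4 chaperone genes were lower, and 2 chaperone genes higher.

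In CD4 cells at 10000 ng/ml, where 40.1% of all genes were lower and 27.5% higher, the lists held calls in both directions. Of 36 replication genes 12 were higher, with Mcm2, a subunit of the replicative helicase, at 0.72, and 7 lower, with E2f2 at -2.56; edgeR called 17 higher and 5 lower. Of 19 mitotic genes 17 were lower and 1 higher, with Mki67 at -1.61. Of 10 replication-independent histone genes 5 were lower, with H2afv at -1.55 and the centromeric histone gene Cenpa at -1.14, and 1 higher, H3f3b at 0.62. Of 17 chaperone genes 7 were higher, with Hat1, which acetylates new H4, at 0.78, and 4 lower. Of 15 processing genes 1 was higher, Cstf2 at 0.48, and 1 lower, Casp8ap2 at -0.30, which edgeR did not call lower. With PD-1 engagement over the stimulated doses 41.2% of all genes were lower and 4.48% higher, with a median of -0.14, and 24 of 36 replication genes were lower and 0 higher, with E2f1 at -0.34 and the origin licensing gene Cdc6 at -0.34. Under edgeR 4 replication genes were lower and 2 higher. Of 19 mitotic genes 1 was higher and 1 lower, and edgeR called 8 higher. The chaperones had 11 of 17 lower, against 1 lower and 2 higher under edgeR, and the processing genes 10 of 15 lower, against 2 under edgeR. Of 10 replication-independent histone genes 3 were higher, with H2afz at 0.26, and 1 lower, H2afy at -0.28. In the hybridoma no gene of these 5 lists was called with engagement by limma or edgeR, with 0 at an unadjusted p under 0.05 by either; the replicate block called 2, H2afx and Tpx2, each higher by 0.10.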

How the data were processed

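The authors deposited 2 tables of CAGE tag clusters in RPM, scaled to the library total. The submitters' processing notes name mouse build mm9 and the tools HISAT2 2.0.5 and BWA 0.7.12, with no role for either. Low values were whole multiples of 1 tag, within 0.1 tag, for at least 99.98% of values in every library, so whole tags were recovered for edgeR.

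Clusters with 1 symbol were summed per symbol; clusters with several or no symbols were left out. Genes that reached 1 RPM in 2 or more libraries entered the test on log2(RPM + 1) with limma 3.58.1 (R 4.3.3), with 1 mean per group and all libraries of a system in the fit, and Benjamini-Hochberg adjustment over all genes tested. A gene was called at an adjusted p under 0.05. Fold changes on this scale understate those of low genes. Alternatives were other pseudocounts, no filter, quantile normalization, edgeR 4.0.16 with TMM, a replicate block, a B cell marker covariate, fits of only the groups compared and leaving out libraries. Scripts were tested on simulated data.

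Members and lists were chosen with earlier results of these data known. Named genes were the 3 most abundant of each type, up to 5 called genes of largest change in each direction per main comparison, genes called in opposite directions in the systems and up to 4 called genes of each list; others were named after their values were seen. Whether replicate numbers pair libraries was checked by the correlation of deviations from group means within each pair of an engaged and an unengaged library that share dose and number: it was 0.788, 0.33, 0.442, 0.314, 0.472 and 0.431 at 0, 1, 10, 100, 1000 and 10000 nM in the hybridoma, all above 0.1, so the blocked fit is given there. The pairing comes from the data; the labels do not explain the numbers.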

Additional observations from a re-analysis of the deposited data

Results flagged for a closer look

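The joint fit over both systems found the response to stimulation at the top dose lower in the hybridoma than in CD4 cells for 17 histone genes and higher for 1, Hist3h2ba, and the effect of PD-1 engagement lower in the hybridoma for 1, Hist2h3b. Each difference was itself tested. For stimulation the same fit also called large shares of all shared genes in both directions. Those shares are given with the counts above, and the counts stand beside them.

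Some tag clusters inside the histone stretches carry no symbol or several symbols, and no comparison used them. In the hybridoma, a cluster with no symbol at position 23677859 of chromosome 13 (mm9) averaged 1618 RPM, at 1142 ± 197.9 RPM at 10000 nM and 1935 ± 259.3 RPM at dose 0. A cluster with several symbols at 23837390 of chromosome 13 averaged 3783 RPM, at 2660 ± 358.5 RPM at 10000 nM and 3913 ± 18.66 RPM at dose 0. Another with several symbols at 96024812 of chromosome 3 averaged 2234 RPM, at 1530 ± 78.4 RPM at 10000 nM and 2770 ± 358.5 RPM at dose 0. In CD4 cells, the cluster with no symbol at 23677858 of chromosome 13 averaged 663.2 RPM, at 628.4 ± 79.5 RPM at 10000 ng/ml and 786.7 ± 5.339 RPM at dose 0. The cluster with several symbols at 23837390 averaged 2233 RPM, at 2218 ± 339.6 RPM at 10000 ng/ml and 2331 ± 125.2 RPM at dose 0 (SD, n = 3 at the top dose and 2 at dose 0, without PD-1 engagement). These levels are of the order of the named members.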

How the results depend on the processing

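Of the recomputed counts, 160 stayed within 1.5 times the value reported and 18 moved; of the recomputed single genes, 2083 kept direction and side of the threshold, 44 passed it newly, 100 no longer passed it and 2 changed sign. The sign changed for Hist1h4c with stimulation in the hybridoma after quantile normalization (0.0226) and for Hist1h2br with stimulation in CD4 cells without library 2 of dose 0 (0.32; without library 1 it was -7.35). Of members lower with stimulation in the hybridoma, edgeR called 27, against 47, and single left-out libraries gave 31 to 44; edgeR called 1 higher. Of members higher with PD-1 engagement in the hybridoma, edgeR called 0, the B cell marker covariate gave 3, the replicate block 18 and single left-out libraries 0 to 3. In CD4 cells edgeR called 7 members higher with stimulation and quantile normalization 5, against 3, with 3 to 4 under single left-out libraries; the covariate called 1 member lower with engagement, and single left-out libraries 0 to 1. CD4 members lower with stimulation were 21 under edgeR and 26 with the replicate block, and those higher with engagement 35 with the block; numbers of engaged and unengaged CD4 libraries correlated at 0.037, 0.114, 0.092, 0.254 and 0.138 from dose 0 up, not above 0.1 at every dose, and were not taken as pairs, nor were those across stimulation doses (-0.111 to 0.166); with the block 50 members were lower with stimulation in the hybridoma. The counts of this paragraph are given without the share of all genes called in each setting, and that share changes with the setting too. At the top dose in CD4 cells the median of all genes with stimulation was -0.15 on the log2 scale by limma. It was -0.02 under edgeR and -0.03 after quantile normalization. The cause of the changes in counts and signs was not tested. Adding clusters with several symbols to each symbol was not run, since their symbols are not listed. Leaving out genes with isolated high libraries and running other scalings at single doses were chosen after seeing the data; without those genes 47 hybridoma and 25 CD4 members were lower with stimulation. Depth limits the members under 20 RPM most, and groups of 2 or 3 libraries limit all.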
